A study of Mus musculus with 10 samples.

Results

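The 7 mouse genes Kdm1a, Kdm1b, Phf21a, Phf21b, Rcor1, Rcor2 and Rcor3 encode the LSD1 histone demethylase, its paralogue LSD2, and the proteins that hold LSD1 in the CoREST complex. They were taken by gene symbol from 26264 symbols in a deposited table of splicing events, and 379 events carried one of the 7 symbols. These were 120 cassette exons (9 of them microexons, here exons of 3 to 27 nt), 100 introns, and splice sites with more than 1 choice (91 at 3' ends of introns, 68 at 5' ends). By gene, the events numbered 67 in Kdm1a, 74 in Kdm1b, 82 in Phf21a, 40 in Phf21b, 38 in Rcor1, 33 in Rcor2 and 45 in Rcor3.

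The study sequenced polyadenylated RNA from 2 mouse cell systems, 10 samples in all. N2A cells, a neuroblastoma line, received siRNA at 40 nM, either a pool aimed at Qk (siQk, n = 3) or one with no target (siNT, n = 3), and RNA was collected after 72 h. Qk encodes Quaking, an RNA-binding regulator of splicing, and the comparison asks which exons respond to its loss. Glutamatergic neurons differentiated in vitro from mouse embryonic stem cells were, on day 7 in vitro, given 100 uM cycloheximide for 12 h (n = 2) or left without drug (n = 2). Cycloheximide stops translation, which nonsense-mediated decay depends on, and the comparison asks which microexon forms then change in share. Both N2A groups received a pool of siRNAs, N2A is a single tumour-derived line, and the labels call the replicates biological replicates without naming separate clones or animals.

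LSD1 removes methyl groups from mono- and dimethylated lysine 4 of histone H3, and the CoREST proteins RCOR1, RCOR2 and RCOR3 bridge it to nucleosomes and to histone deacetylases. PHF21A reads unmethylated lysine 4 through a PHD finger and belongs to the same complex, which represses neuronal genes in other tissues together with the repressor REST. In neurons, a mini-exon in Kdm1a gives a neuronal LSD1 isoform, and the neuronal form of PHF21A lacks the AT-hook, a DNA-binding motif.

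The alternative exons on which the results turn are shown here with the 30 nt of spliced transcript on each side, 5′ to 3′ on the sense strand, from GENCODE M21 transcripts (GRCm38, the same assembly as mm10). Capitals mark the alternative exon and lower case its neighbours, so that the junctions are visible.
Kdm1a 12 nt exon, chr4:136563438-136563449, minus strand: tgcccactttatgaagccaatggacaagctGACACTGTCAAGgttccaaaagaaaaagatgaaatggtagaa
Kdm1a 60 nt exon, chr4:136582040-136582099, minus strand: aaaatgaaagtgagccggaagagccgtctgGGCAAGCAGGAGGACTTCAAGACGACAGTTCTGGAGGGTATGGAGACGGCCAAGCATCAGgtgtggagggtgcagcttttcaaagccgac
Phf21a 23 nt exon, chr2:92351609-92351631, plus strand: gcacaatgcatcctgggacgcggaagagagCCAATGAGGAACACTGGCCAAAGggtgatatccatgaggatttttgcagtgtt
Phf21a 164 nt exon, chr2:92351701-92351864, plus strand: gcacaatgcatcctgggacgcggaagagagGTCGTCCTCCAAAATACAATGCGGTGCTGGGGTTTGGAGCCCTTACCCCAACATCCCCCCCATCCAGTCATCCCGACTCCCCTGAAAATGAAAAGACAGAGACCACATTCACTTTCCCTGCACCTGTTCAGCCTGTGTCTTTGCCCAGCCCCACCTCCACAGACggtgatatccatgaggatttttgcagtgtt
Phf21b 23 nt exon, chr15:84793896-84793918, minus strand: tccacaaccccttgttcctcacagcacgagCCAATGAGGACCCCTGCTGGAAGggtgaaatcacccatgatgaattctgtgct

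All 5 exons are coding in GENCODE M21. The 12 nt and 60 nt exons of Kdm1a have lengths divisible by 3, each present in 1 transcript, of 5 and 3 that span the position. The 2 Phf21a exons lie 69 nt apart and were annotated as alternatives: of 12 transcripts spanning them, 5 held the 23 nt exon, 7 held the 164 nt exon, 0 held both and 0 held neither. Both join the same exon upstream and the same exon downstream, as their identical lower-case flanks show, and both lengths leave a remainder of 2 on division by 3. The 23 nt exon of Phf21b was in 2 of 3 spanning transcripts, and the 1 without it is annotated as a target of nonsense-mediated decay. A 21 nt exon of Kdm1b at chr13:47057677-47057697, plus strand, in the deposited table is in 0 GENCODE M21 transcripts of the gene.

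The 23 nt exons of the paralogues Phf21a and Phf21b have the same length and 17 of 23 bases in common (73.9%). Aligned without gaps and counted from the 5′ end of the exon, with the Phf21a base first, they differ at A11C, A13C, G17C, C18T, C19G and A20G. The pair is printed here with the differing bases in capitals.
Phf21a: ccaatgaggaAcActgGCCAaag
Phf21b: ccaatgaggaCcCctgCTGGaag
The 30 nt downstream share 18 of 30 bases and the 30 nt upstream share 6 of 30, so the likeness is highest over the microexon and lowest before it.

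In both paralogues the annotated reading frame holds with this exon or, in Phf21a, with the longer alternative. Without its 23 nt exon, the Phf21b coding sequence read from the annotated start reaches a stop codon that ends 5 nt into the next exon, 334 nt before the last exon junction, after 282 or 294 codons in place of 475 or 487 in the 2 transcripts. In Phf21a, a transcript with neither alternative exon reaches a stop that also ends 5 nt into the next exon and lies 331 nt before the last junction. With the exon in place, the stop lies after the last junction in both genes. By contrast, Kdm1a keeps its frame without the 60 nt exon, with 853 codons in place of 873.

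The exon-event reads, summed over the whole table, ranged from 26595944 to 80481173 per N2A sample, with the lowest 2 totals in siQk samples 2 and 1. Qk itself fell to 13.1% of its siNT coverage and was low in each siQk sample, at 8.17, 12.3 and 13.0 CPM against 90.8, 82.8 and 82.5 CPM in siNT (a log2 difference of -2.91 with SE 0.16 and limma adjusted p = 0.000483). The summed level of the 9 neuroblastoma and neuron markers tested was 1076 to 1113 CPM in siNT and 1186 to 1334 CPM in siQk. The summed level of the 6 glial markers was 4.14 to 4.57 CPM and 3.35 to 5.14 CPM, that of 3 fibroblast markers 0.528 to 1.52 CPM and 0.733 to 1.72 CPM, and both pluripotency markers, Pou5f1 and Nanog, were at or near 0. In such bulk samples a change in the share of cells that include an exon cannot be told apart from a change of inclusion within each cell. No marker of cell type was measured here in the neurons, whose table covers microexons only.

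In N2A cells the microexons of the 7 genes sat at opposite ends of the scale. Percent spliced in (PSI), the share of transcripts that include an event, was near 1 for the 12 nt exon of Kdm1a, near 79 for the 23 nt exon of Phf21a and near 100 for that of Phf21b in the siNT samples. The 21 nt exon of Kdm1b lay between, near 18. The remaining 5 microexons, 1 in Kdm1a and 4 in Phf21a, were at 0 in all 6 samples.

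Events entered the test with 10 or more reads (inclusion and exclusion together) per sample and a mean PSI from 2 to 98, and were compared by limma on inclusion over exclusion reads as a log2 ratio. Of the 120 cassette exons, 116 had enough reads, but 86 of these had a mean PSI over 98 and 14 a mean under 2, which left 16. In total, 0 of these 16 exons met the call (adjusted p under 0.05 and at least 10 points), against 1.18% of all 12930 tested exons. At an unadjusted p under 0.05 there were 5 of 16, against 9.04% of all. In 5 of 16 the siNT and siQk samples did not overlap, against 14.6% of all, and 5 differed by at least 10 points, against 5.51% of all. The median absolute difference was 4.24 points in the 16 exons and 1.82 points in all exons. The call was met by 0 of the 2 tested microexons, against 7.32% of all tested microexons. Exons of 1 gene share transcripts and 2 of the 16 are the alternatives of Phf21a, so these are not independent. With the same model on PSI itself, 2 of the 16 passed, against 1.25% of all exons, and with weights for the sampling variance 1 passed, against 1.57% of all.

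**Figure D1:**
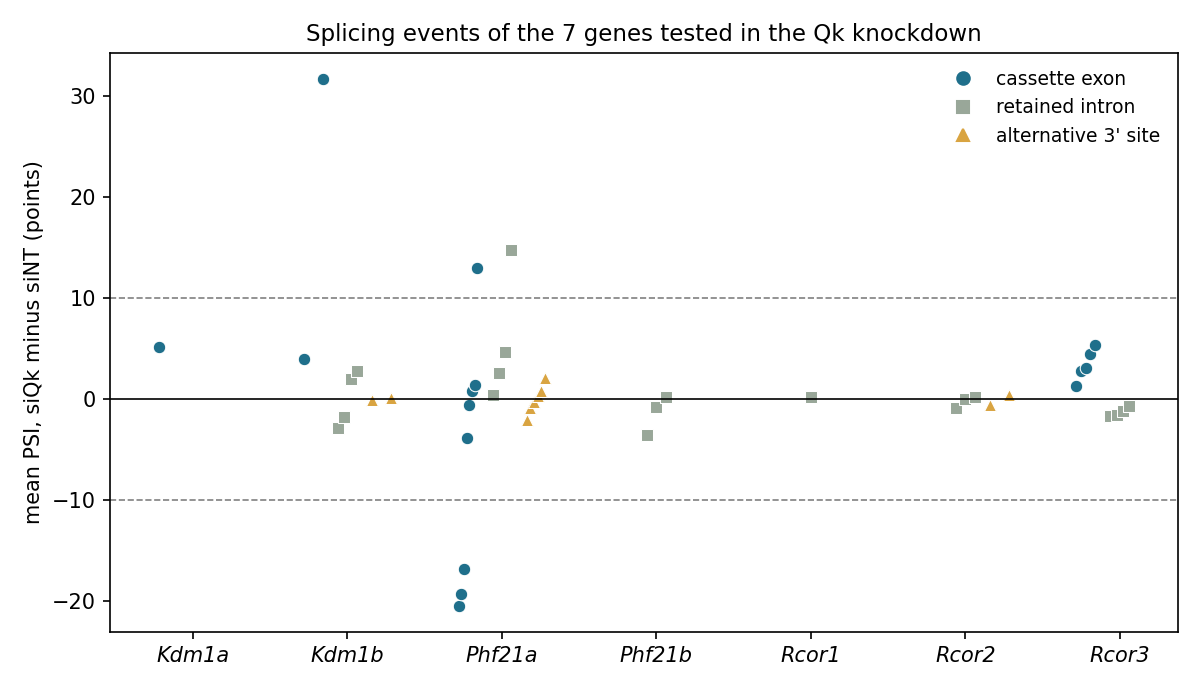
Difference of mean PSI (siQk minus siNT, in points, vertical axis) for each tested splicing event of the 7 genes (horizontal axis), with circles for cassette exons, squares for introns and triangles for alternative 3' splice sites; dashed lines mark 10 points. A Kdm1b exon lies highest at 31.7 points, and the events beyond 10 points are all in Kdm1b and Phf21a.

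Kdm1b had the largest difference. Its gene encodes LSD2, a demethylase of the same lysine that acts without the CoREST proteins and is known for its part in setting imprints in oocytes. The PSI of the 21 nt exon was 16.9, 26.1 and 11.9 in siNT and 49.3, 46.9 and 53.8 in siQk. Each siQk sample was thus above every siNT sample, and the means were 18.3 ± 7.18 (SD, n = 3) and 50.0 ± 3.48 (SD, n = 3). The difference of 31.7 points had a log2 ratio of 2.17 (SE 0.47), an unadjusted p of 0.000871 and a limma adjusted p of 0.0593. Depth was low, with 30 to 90 reads per sample. In siQk sample 2, for example, 14 of 30 reads included the exon, with a 95% Wilson interval of 30.2% to 63.9% that covers counting error only, as do all intervals and limits given here. Over 12 other settings the difference stayed at 28.5 to 35.6 points and the adjusted p ran from 0.00472 to 0.233. The 2 settings past the threshold were limma on PSI (adjusted p = 0.0243) and the variance weights (adjusted p = 0.00472).

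The authors' deposited list of neural microexons gave the same direction for this exon. It held 17.6% for siNT and 50.5% for siQk, a least difference of 7 points at a probability of 0.95, and the class Qk_repressed. The other tested Kdm1b exon, of 172 nt, was at 93.5 ± 3.98 in siNT and 97.5 ± 1.55 in siQk (SD, n = 3; limma adjusted p = 0.676), and its groups overlapped.

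Phf21a, which encodes the PHD-finger reader, showed opposite differences in its 2 alternative exons. For the 23 nt exon the PSI was 77.7, 80.8 and 78.4 in siNT and 95.7, 92.6 and 87.5 in siQk. Every siQk sample was above every siNT sample, with means of 78.9 ± 1.64 and 91.9 ± 4.16 (SD, n = 3). The log2 ratio was higher by 1.65 (SE 0.44) with an unadjusted p of 0.00394 and a limma adjusted p of 0.155, so the call was not met, nor was it met under any of 12 other settings (adjusted p 0.0882 to 0.407). Reads per sample numbered 83 to 215, and siQk sample 1 had 79 inclusion reads of 83 (95% Wilson interval 88.3% to 98.1%).

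The 164 nt exon was named after its values were seen, as the annotated alternative to the microexon. Its PSI was 31.1, 34.1 and 29.3 in siNT and 13.6, 11.6 and 18.8 in siQk. Here every siQk sample was below every siNT sample, and the means were 31.5 ± 2.42 and 14.7 ± 3.72 (SD, n = 3). The difference of -16.86 points had a log2 ratio of -1.39 (SE 0.38), an unadjusted p of 0.00403 and a limma adjusted p of 0.157. It passed with limma on PSI (adjusted p = 0.0367) and in 0 of the other 11 settings, where the adjusted p reached 0.92. The sum of the 2 PSI values was 108.8, 114.9 and 107.7 in siNT and 109.3, 104.1 and 106.3 in siQk. Since each event has its own set of junction reads, such sums can exceed 100. Sample by sample, siQk sample 3 had the smallest shift of the siQk samples in both exons.

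**Figure D2:**
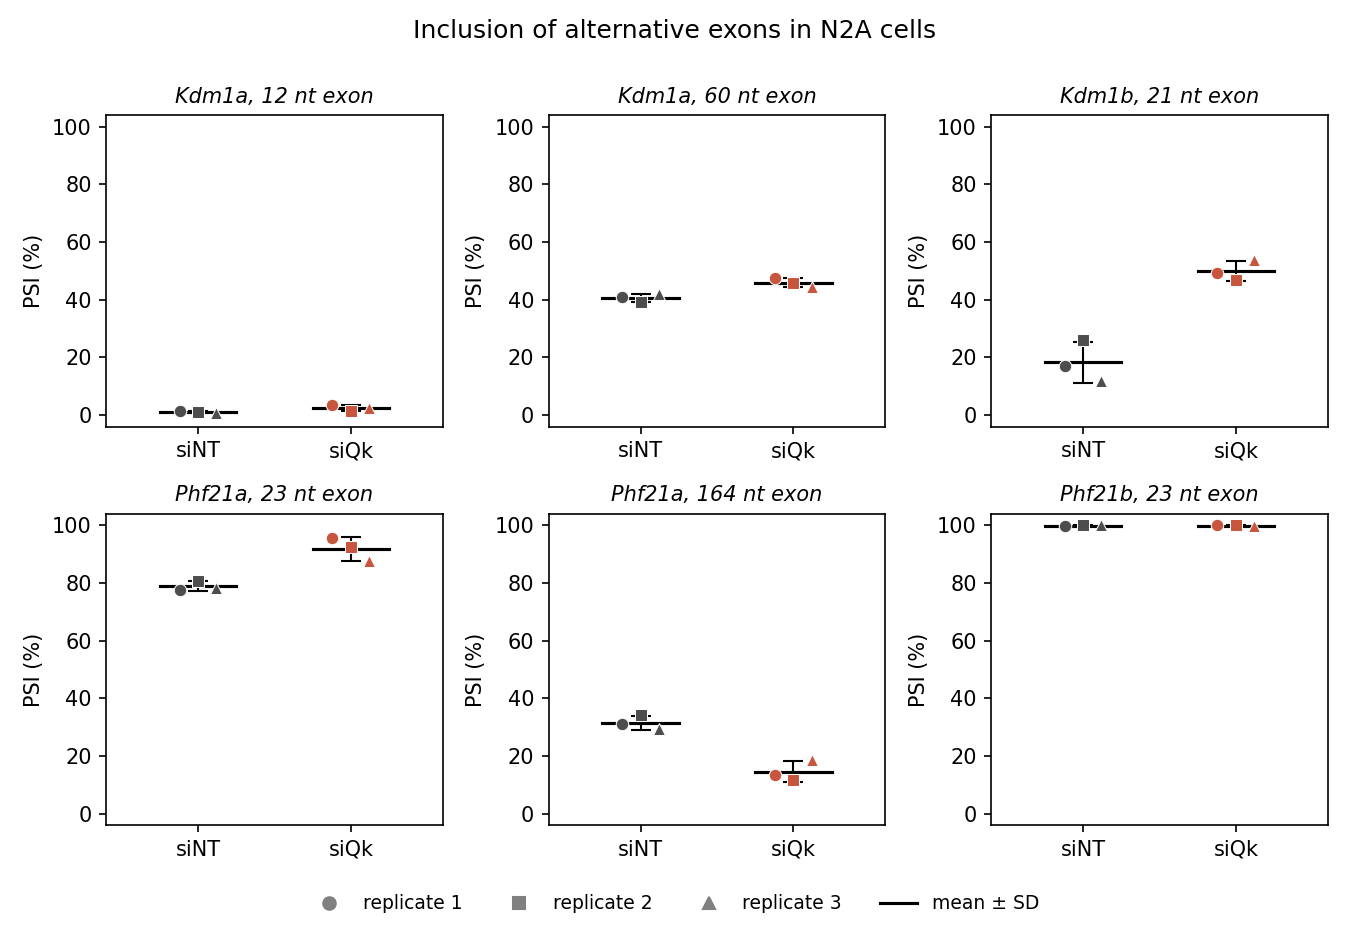
PSI (percent, vertical axis) of 6 alternative exons in siNT (grey) and siQk (red) N2A samples; each symbol is a replicate, horizontal bars are means and error bars SD (n = 3). The groups do not overlap for the Kdm1a 60 nt, Kdm1b 21 nt and both Phf21a exons, while the Kdm1a 12 nt and Phf21b 23 nt exons stay under 4 and above 99.

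A further pair of Phf21a exons differed by more than 10 points, near the 5′ end of the gene. The 59 nt exon at chr2:92186551-92186609 had the largest absolute difference of the gene's exons and lies outside the coding region of the 2 transcripts that contain it. Its PSI was 51.9, 68.4 and 87.6 in siNT and 54.0, 35.1 and 57.3 in siQk. The groups overlapped, and the difference of -20.47 points had a limma adjusted p of 0.663. It was -11.29 points without siNT sample 3 and -13.61 points without siQk sample 2. A 356 nt exon at chr2:92187053-92187408, named after its values were seen, was at 69.8, 71.2 and 69.5 in siNT and at 57.9, 40.0 and 54.7 in siQk. These groups did not overlap, but reads numbered only 19 to 62 per sample (unadjusted p = 0.0379, limma adjusted p = 0.504). The other 4 tested Phf21a exons, of 33, 66, 102 and 249 nt, differed by -3.87 to 1.41 points with overlapping groups.

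Kdm1a, the LSD1 gene, had a single tested exon. This 60 nt exon had 917 to 3381 reads per sample. Its PSI was 40.8, 39.3 and 41.9 in siNT and 47.5, 45.7 and 44.4 in siQk. The siQk samples were all higher, with means of 40.7 ± 1.33 and 45.8 ± 1.55 (SD, n = 3), a difference of 5.17 points (log2 ratio 0.30, SE 0.12, unadjusted p = 0.0345, limma adjusted p = 0.487). In siNT sample 3, the deepest for this exon, the 95% Wilson interval was 40.3% to 43.6%.

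The 12 nt exon, the mini-exon of the neuronal isoform, was included rarely in these cells. Its PSI was 1.40, 1.00 and 0.70 in siNT and 3.60, 1.36 and 2.40 in siQk, from 230 to 844 reads per sample. The lowest siQk sample was below the highest siNT sample. Its mean PSI was under 2, so it was not tested, and with that filter off the difference of 1.42 points had a limma adjusted p of 0.92. In read numbers, siQk sample 2 had 3 inclusion reads of 230 (95% Wilson interval 0.445% to 3.76%) and siNT sample 1 had 9 of 629 (0.755% to 2.70%). The authors' deposited list gave 1.13% and 2.61% and the class Qk_NoChange_CS. A second 12 nt exon of Kdm1a had 0 inclusion reads in 3249 reads over the 6 samples, which allows a share of up to 0.0923%.

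For Phf21b, the paralogue of Phf21a, the 23 nt exon was included in nearly every transcript. Its PSI was 99.8, 100 and 100 in siNT and 100, 100 and 99.8 in siQk, with 170 to 489 reads per sample. Its mean PSI over 98 kept it out of the test. The authors' deposited list gave 99.7% and 99.6% and the class Qk_NoChange_CS. The paralogous 23 nt exons differed in the siNT samples, where the Phf21a exon was absent from 17 to 46 reads of a sample and the Phf21b exon from at most 1.

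Each of the 4 microexons at 0 in Phf21a rested on few reads. The 27 nt exon had 131 reads over the 6 samples, which allows a share of up to 2.29%. For the exons of 12, 3 and 4 nt the reads numbered 81, 69 and 62, which allow up to 3.70%, 4.35% and 4.84%. Inclusion of these exons was therefore not detected, and a share under these limits cannot be told from 0 at this depth.

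In the authors' deposited list, 4 neural microexons (1.77% of its rows) belonged to the 7 genes. The class Qk_repressed was given to 2 of the 4, those of Kdm1b and Phf21a, and to 41 microexons in the whole list (18.1%). The list also gives the side on which a motif, ACTAAC or ACTAAT, lies relative to the exon. This was upstream for Phf21b and none for the exons of Kdm1a, Kdm1b and Phf21a. The search window behind that column and the rule behind the classes are not given in the sources used here, and the classes were made from the same N2A samples.

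Of the CoREST genes, Rcor3 alone had tested exons. Rcor1 (chr12:111039351-111115901), which encodes the founding CoREST protein, and Rcor2 (chr19:7267325-7275225), its paralogue of stem cells and neural progenitors, each had 11 exon events and 0 tested: 10 of them had a mean PSI over 98 and 1 a mean under 2. Rcor3 (chr1:192098546-192138062), the third paralogue, had 5 tested exons of 14. Its largest difference was in a 135 nt exon at chr1:192102101-192102235, with PSI of 26.3, 31.1 and 44.5 in siNT and 28.3, 43.9 and 45.8 in siQk. The groups overlapped widely, and the difference of 5.38 points was within the spread of 9.43 (SD, n = 3) between siNT samples (limma adjusted p = 0.86). With 1 sample left out it ran from 1.56 points (without siNT sample 1) to 10.9 points (without siQk sample 1), and it also moved by over 1.5 times without siNT sample 3 (10.7 points), siQk sample 2 (3.09 points) or siQk sample 3 (2.14 points). All 5 Rcor3 exons had a higher mean in siQk, by 1.30 to 5.38 points, and all 5 overlapped. One of them, of 114 nt, is in 1 GENCODE transcript, annotated for nonsense-mediated decay, and was at 11.3 ± 0.593 in siNT and 14.1 ± 5.07 in siQk (SD, n = 3).

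Of the introns of the 7 genes, 99 of 100 had enough reads, and 80 of these had a mean PSI under 2. The remaining 19 were tested, and 0 met the call, against 0.113% of all 17664 introns. At an unadjusted p under 0.05 there were 2 of 19, against 5.02% of all, and 5 of 19 did not overlap between groups, against 10.4% of all. Both of these 2 introns adjoin the exons printed above. The 2252 nt intron directly upstream of the Phf21a 164 nt exon, which contains the 23 nt exon, was retained at 13.6, 15.3 and 17.0 in siNT and 40.9, 30.8 and 18.4 in siQk. The siQk samples were all higher, though siQk sample 3 was only just above the highest siNT sample (unadjusted p = 0.0177, limma adjusted p = 0.845, 12 to 76 reads). Without siQk sample 1 the difference of 14.7 points was 9.32 points. On the other side of the 164 nt exon, the 4999 nt intron was at 31.4 ± 1.44 in siNT and 36.1 ± 8.88 in siQk (SD, n = 3), also a high level for the gene set.

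The 1161 nt intron upstream of the Phf21b 23 nt exon was retained at 11.01, 9.09 and 7.34 in siNT and 9.34, 2.63 and 4.79 in siQk. The groups overlapped (unadjusted p = 0.0153, limma adjusted p = 0.84), and the difference of -3.56 points was -5.44 without siQk sample 1 and -2.08 without siQk sample 2. Its downstream intron was at 1.20 and 1.19 on average. In the other genes the largest differences were -2.82 points in Kdm1b (3.73 to 0.917 on average), 0.20 points in Rcor1 (6.39 to 6.59), -0.85 points in Rcor2 (2.61 to 1.76) and -1.72 points in Rcor3 (3.34 to 1.62), each with a limma adjusted p above 0.99. Kdm1a had 18 introns and all 18 had a mean PSI under 2.

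Splice site choice differed least. Of 91 alternative 3' splice sites, 10 were tested and 0 met the call against 0.101% of all 9943. At an unadjusted p under 0.05 there were also 0, against 4.85% of all, and 0 did not overlap between groups, against 9.55% of all. Of the 10, 5 were higher in siQk and 5 lower. Forms of the same site share reads and move against each other, so the 10 are not independent. A tandem site of Phf21a, 3 nt apart, was used almost evenly: its 2 forms had means of 49.2 ± 4.24 and 50.8 ± 4.24 in siNT and 47.1 ± 5.12 and 52.9 ± 5.12 in siQk (SD, n = 3; limma adjusted p = 0.997). The largest differences in Kdm1b and Rcor2 were 0.14 and 0.60 points in size. All 68 alternative 5' splice sites were outside the test, 60 with enough reads, of which 33 were under 2 and 27 over 98.

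The exon profile most like that of the Phf21a microexon over the 6 samples was sought among 12857 tested exons of other genes, as a description. The 3 nearest were a 117 nt exon of Erbin (root mean square difference 1.36 points), a 12 nt exon of Mta1 (2.59 points) and a 45 nt exon of Sept6 (2.69 points). The Erbin exon was at 79.6, 79.8 and 79.6 in siNT and 94.0, 91.6 and 86.4 in siQk. The Mta1 exon was at 80.3, 80.7 and 78.9 in siNT and 97.1, 93.2 and 93.0 in siQk. That of Sept6 was at 78.3, 78.1 and 78.9 in siNT and 92.7, 87.4 and 87.3 in siQk. Mta1 encodes a subunit of NuRD, another complex with histone deacetylases. The ranking used PSI alone, and a link between these genes was not tested.

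Junction coverage, the reads of all exon events of a gene divided by the sample total in CPM, stood in for expression. Read per exon event with a PSI of at least 95 (median over events), so that genes could be set side by side, the siNT level was highest in Kdm1a at 35.9 ± 1.77 CPM, followed by Rcor2 at 31.7 ± 1.32, Phf21b at 13.1 ± 1.34, Rcor1 at 7.57 ± 0.925, Phf21a at 5.27 ± 0.607, Rcor3 at 3.74 ± 0.767 and Kdm1b at 2.38 ± 0.257 (SD, n = 3). Among siNT samples no 2 neighbours in that order overlapped, though the gap between Phf21a (lowest 4.75) and Rcor3 (highest 4.62) was small. In the siQk samples Phf21a (3.81 to 4.66) and Rcor3 (3.09 to 3.92) overlapped. The 2 genes whose exons differed most were thus among the 3 with the least coverage, which is also where PSI is least precise.

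None of the 7 genes met the coverage call in the Qk knockdown: 0 of 7 had a limma adjusted p under 0.05, against 4.21% of 10851 genes. At an unadjusted p under 0.05 there were 3 of 7, against 20.4% of all, and the same 3, Kdm1a, Phf21a and Rcor2, did not overlap between groups, against 26.0% of all. Kdm1a had 850, 755 and 812 CPM in siNT and 709, 680 and 711 CPM in siQk. Every siQk sample was lower, with a log2 fold change of -0.20 (SE 0.07, limma adjusted p = 0.144). Rcor2 had 349, 336 and 371 CPM against 313, 308 and 283 CPM (log2 fold change -0.23, SE 0.07, limma adjusted p = 0.125).

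Phf21a had 92.0, 86.0 and 102 CPM in siNT and 66.1, 85.7 and 75.5 CPM in siQk, with siQk sample 2 within 1 CPM of siNT sample 2 (log2 fold change -0.30, SE 0.11, limma adjusted p = 0.17). These sums include reads over the alternative exons, whose own differences were given above. For Kdm1b, the log2 fold change was -0.0013 (SE 0.09), with 55.8, 49.3 and 56.7 CPM against 56.1, 53.1 and 52.2 CPM. Phf21b, Rcor1 and Rcor3 had log2 fold changes of 0.14, -0.15 and -0.07 with overlapping groups and adjusted p-values of 0.495, 0.488 and 0.866.

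**Figure D3:**
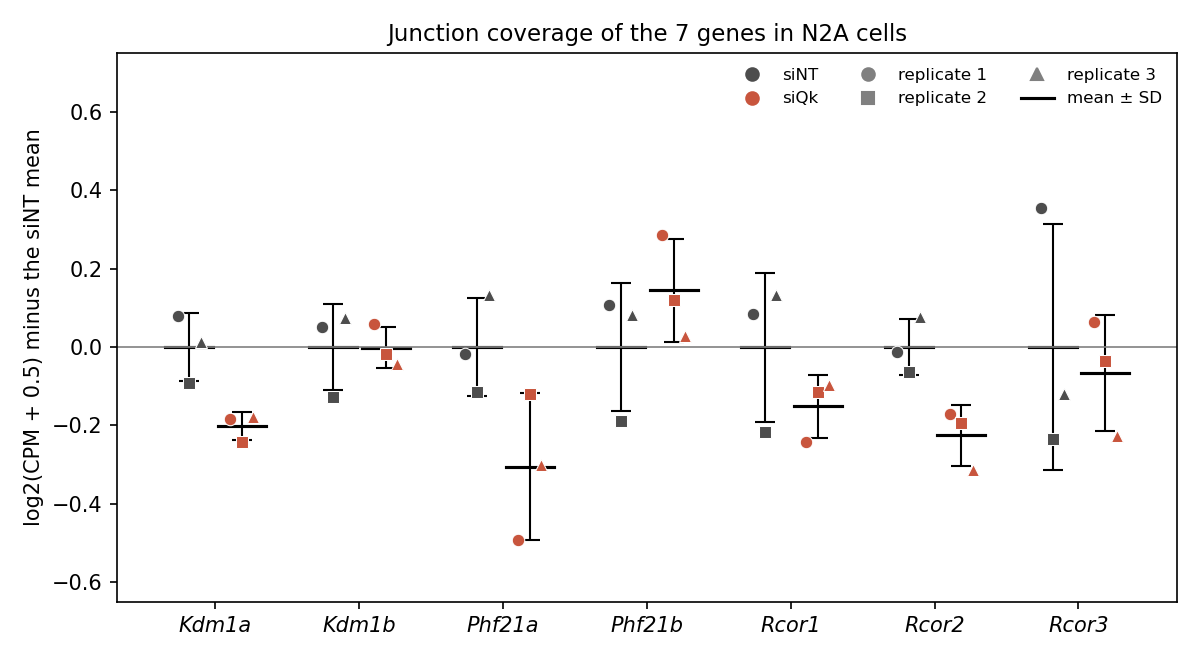
Junction coverage of the 7 genes as log2(CPM + 0.5) minus the mean of the siNT samples (vertical axis) in siNT (grey) and siQk (red) samples; symbols are replicates, bars the mean and SD (n = 3). The siQk samples of Kdm1a, Phf21a and Rcor2 lie below all siNT samples, with mean differences between -0.20 and -0.30, and the other 4 genes overlap.

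Genes that work with or against LSD1 were taken from 5 lists, to be read against 4.21% of all genes called and 20.4% at an unadjusted p under 0.05. Of 15 partners of CoREST and recruiting factors, 11 were tested and 0 called, with a median log2 fold change of 0.01 against 0.02 for all genes (3 at an unadjusted p under 0.05). The largest were Gfi1, a repressor that recruits LSD1 (-0.46, SE 0.15, limma adjusted p = 0.123), and Hmg20b, a CoREST subunit that binds DNA (0.32, SE 0.07, limma adjusted p = 0.0523). Rest itself, the factor that brings the complex to neuronal genes, was covered at only 3.90 ± 0.902 CPM in siNT and 4.59 ± 0.785 CPM in siQk (SD, n = 3). Few reads fell in the exon events of Hdac1 (0.0682 CPM on average in siNT), whereas its paralogue Hdac2 had 645 CPM.

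The other enzymes of lysine 4 did not meet the call either. All 3 JmjC demethylases were tested and 0 called, against 4.21% of all genes (median -0.11, 0 at an unadjusted p under 0.05, against 20.4% of all), with Kdm5b at -0.38 and Kdm5a at -0.11. Of the 11 members of the methyltransferase complexes, 0 were called (median -0.09, 1 at an unadjusted p under 0.05, against the same shares), with Setd1b at -0.42 and Kmt2b at -0.32. Those 2 were called without siQk sample 1 (limma adjusted p = 0.0448 and 0.0272). In that setting 863 of 10885 genes were called, against 457 of 10851 with all samples.

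Of 14 neuronal genes known as REST targets, 12 were tested, 2 rose and 0 fell, with a median of 0.11, against 2.76% of all genes called higher and 1.45% lower. At an unadjusted p under 0.05 there were 6 of 12, against 20.4% of all, in both directions: L1cam, a cell adhesion gene named after its values were seen, had a log2 fold change of -0.23 (limma adjusted p = 0.163). Of the 9 neuroblastoma and neuron markers tested, 2 were called higher as well, Mycn (0.63, limma adjusted p = 0.0202) and Isl1 (0.45, limma adjusted p = 0.0491), and their part in these values was not tested. Stmn2 is in both the marker list and the list of REST targets, so the lists are not independent. Chga, which encodes chromogranin A of secretory granules, was at 273, 263 and 256 CPM in siNT and 392, 356 and 347 CPM in siQk. The increase was 0.46 on the log2 scale (SE 0.07, limma adjusted p = 0.0163). Vgf, a secreted neuropeptide precursor, was at 239, 322 and 292 CPM and 397, 377 and 406 CPM (log2 fold change 0.48, SE 0.11, limma adjusted p = 0.0466). In both genes all siQk samples were higher, but the call of Chga was lost without siNT sample 2 or 3 or siQk sample 2 or 3 (adjusted p 0.0601 to 0.0809). That of Vgf was lost without siNT sample 1, 2 or 3 and without siQk sample 2 or 3 (adjusted p 0.0601 to 0.18). Calls over all genes also went from 457 to 153, 95 and 110 without siNT sample 1, 2 and 3. They went to 68 and 43 without siQk sample 2 and 3.

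Among 12 regulators of microexons, 11 were tested, 0 rose and 2 fell, against 2.76% and 1.45% of all genes (median -0.19). At an unadjusted p under 0.05 there were 5 of 11, against 20.4% of all. One is Qk, the targeted gene. The other is Ptbp2, a repressor of neuronal exons, at 194, 181 and 173 CPM in siNT and 133, 133 and 128 CPM in siQk (log2 fold change -0.48, SE 0.07, limma adjusted p = 0.0154). Without siNT sample 2 or siQk sample 2 or 3 the adjusted p of Ptbp2 was 0.0601 to 0.0989. Calls over all genes were also fewer in these settings (95, 68 and 43, against 457 with all samples). Srrm4 was named after its values were seen because it is a known activator of the Kdm1a mini-exon. It had 41.4, 33.5 and 44.3 CPM in siNT and 31.8, 28.2 and 25.6 CPM in siQk. Its groups did not overlap (log2 fold change -0.47, SE 0.13, limma adjusted p = 0.0899). Without siQk sample 1 its adjusted p was 0.0442, but 863 of 10885 genes were called there, against 457 of 10851 with all samples. Rbfox1, also named after its values were seen, was higher in siQk without overlap (log2 fold change 0.54, SE 0.16, limma adjusted p = 0.0919). The groups of Nova1 overlapped (log2 fold change -0.19, SE 0.15, limma adjusted p = 0.544). The part of these regulators in the exon values was not tested.

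In neurons, the authors' deposited comparison of microexons held 7 rows of the set, 1 in Kdm1a, 5 in Phf21a and 1 in Phf21b, among 2469 rows with exon lengths of 1 to 30 nt. The table gives 1 PSI per condition, so no replicate spread or test is available, and its depth is unknown. The table's name lists control before cycloheximide, and its first PSI column was read as untreated on that ground. Rows with 10 points or more between conditions and a probability of 0.9 or more were counted as changed. By that rule 2 of the 7 rows changed, both lower with cycloheximide, against 9.40% of all rows and 7.17% lower.

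The 2 rows were the paralogous 23 nt exons. In Phf21b the PSI was 91.2% untreated and 16.6% with cycloheximide, a difference of -74.6 points with a probability of 1.0 in the authors' deposited table. This was the 4th largest fall among the 2469 rows, whose median difference was -0.06 points. In Phf21a it was 62.1% and 32.8%, a difference of -29.3 points with a probability of 0.958, the 82nd largest fall. No test of the difference between the 2 genes was possible. As described above, the annotated Phf21b form without the exon carries an early stop, and in Phf21a the 164 nt exon can take its place. Whether these features have a part in either fall was not tested. In Phf21a the reads without the microexon can come from the 164 nt form or from a form with neither exon, and these cannot be told apart, because exons over 30 nt are not in that table.

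**Figure D4:**
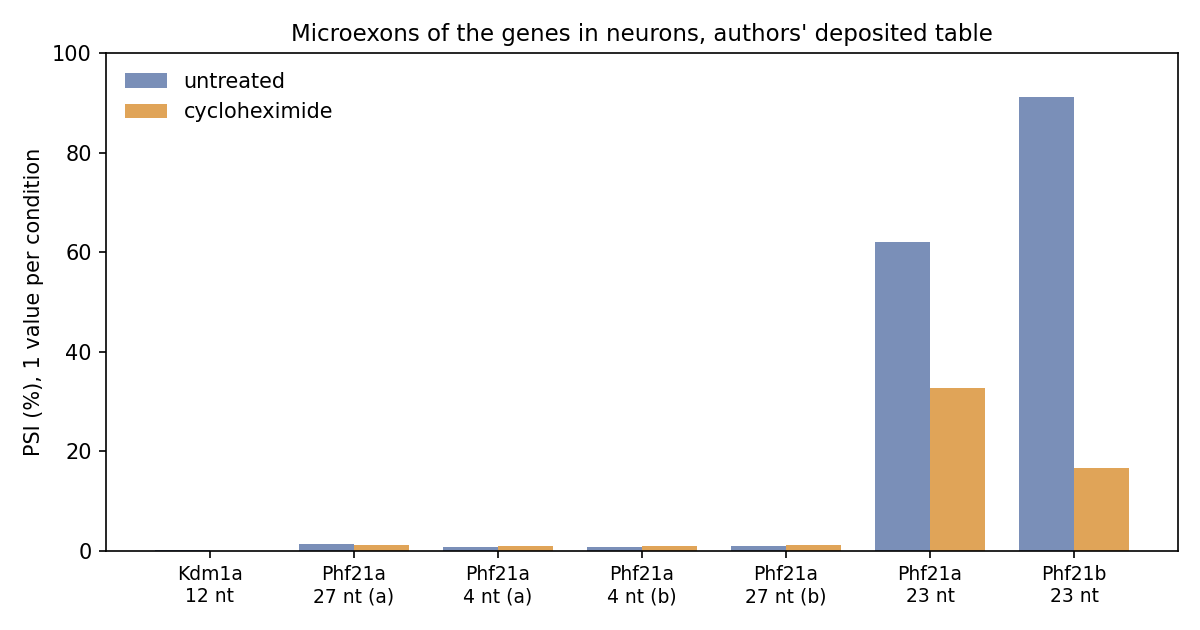
PSI (percent, vertical axis) of 7 microexons of Kdm1a, Phf21a and Phf21b in neurons without drug (blue) and with cycloheximide (orange), 1 value per condition from the authors' deposited table, hence no error bars; letters tell exons of equal length apart. The Phf21b exon goes from 91.2% to 16.6% and the Phf21a 23 nt exon from 62.1% to 32.8%, and the other 5 are under 2%.

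The remaining 5 rows were low in both conditions. The Kdm1a 12 nt exon was at 0.115% and 0.0786% in the authors' deposited table (probability 0.602). The 4 other Phf21a exons, of 27, 4, 4 and 27 nt, ran from 0.787% to 1.48% untreated and from 0.976% to 1.20% with cycloheximide, with probabilities of 0.537 to 0.608. Kdm1b, Rcor1, Rcor2 and Rcor3 had no row. Of the 3 coding microexons printed above, the Kdm1a mini-exon was the least included and the Phf21b exon the most included, both in N2A cells and in neurons without drug.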

How the data were processed

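The members and gene lists were chosen with earlier results of these data known. The authors deposited a percent spliced in per event and N2A sample and, beside it, a quality cell in text form with inclusion and exclusion reads, per the file headers. They also deposited a microexon list and a neuron comparison whose PSI and probability are fractions, 1 value per condition; the entropy score deposited with the latter was not used. PSI fractions are printed in percent. The build is mm10, per the submitters' processing notes; the sources used here do not give the software, though the table layouts are those of vast-tools and Whippet.

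Events with at least 10 reads in each sample and a mean PSI from 2 to 98 entered limma 3.58.1 in R 4.3.3 (robust, variance trend, two-sided) on log2 of inclusion over exclusion reads, each plus 0.5, with Benjamini-Hochberg adjustment within each event class over the whole table. Exon-event reads per gene were summed, divided by the sample total (CPM), and tested as log2(CPM + 0.5) by limma-trend for genes averaging 20 reads or more. A read can serve several events, and folds of low genes are understated on this scale. P-values measure the spread between 3 samples a group. On simulated data 82% of 200 changed exons among 12930 and 98.5% of 200 genes among 10851 were recovered. Recovery at the sizes of difference reported in the Results was not tested. Samples of 1 group were 1.49 to 2.93 sampling variances apart, and none was a copy. Values per sample are given for every microexon with inclusion reads and for each gene's tested exon, intron and splice site with the largest difference, or by range and counts where small; of each list the called genes, or the 2 with the largest change, are named. Sequences and frames came from GENCODE M21 transcripts, read with Python 3.11.15 and pandas 2.3.3; figures used matplotlib 3.10.9. Alternatives are given in the closing section.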

Additional observations from a re-analysis of the deposited data

How the results depend on the processing

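The count of called exons in the 7 genes was 0 except with limma on PSI (2) and with sampling variance weights (1). For introns, alternative 3' sites and the coverage of the 7 genes it was 0 in all settings run. In neurons the count of changed microexons was also 2 at a probability of 0.95 or more, and at 5 points or more. The Phf21a exon, at 0.958, was only just above the first of these limits. The other rows of the set were low in both conditions, so the second limit could add none. The main fit did not pair samples by replicate number, and whether the numbers mark pairs is not settled by these values. Deviations of same-numbered samples correlated at 0.139, 0.0193 and 0.116 over cassette exons and at 0.479, -0.136 and 0.480 over gene coverage. For siQk samples 1 and 3 the same-numbered siNT sample was the closest in both measures. In contrast, siQk sample 2 was closest to siNT sample 3 (0.0451 and 0.493). With the replicate number as a block, coverage calls over all genes went from 457 to 1205, and the lists had 1 (CoREST partners), 1 (JmjC demethylases), 2 (methyltransferases), 5 (REST targets) and 4 (microexon regulators) called genes. For REST targets the count of 2 became 1 without the read filter, 1 with median ratio scaling and 0 with the exon event with the most reads; for microexon regulators that last setting gave 1. Leaving out 1 sample gave 0 to 3 for REST targets (0 without siNT 2 or 3, or siQk 2 or 3; 1 without siNT 1; 3 without siQk 1), 1 to 4 for microexon regulators and 2 for methyltransferases (without siQk 1). Over all genes these coverage counts ran from 43 (without siQk 3) to 863 (without siQk 1).

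Directions that turned were all of uncalled values near 0. With 1 sample left out, the difference ran from -0.768 to 0.307 points at the Kdm1b 3' site, from -4.17 to 0.865 at that of Phf21a, from -1.02 to 0.04 at that of Rcor2 and from -1.26 to 1.95 in the Rcor1 intron. The log2 coverage change then ran from -0.0644 to 0.0356 for Kdm1b and from -0.18 to 0.11 for Rcor3; Kdm1b coverage was 0.26 with the exon event with the most reads. Junction reads limit these results: the exons that differed most had 17 to 215 reads per sample, and the depth of the neuron comparison is unknown.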
